A study of Mus musculus with 6 samples.

Results

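The regions described here are 862 stretches of mouse cerebellar DNA whose 5-hydroxymethylcytosine (5hmC) the authors listed as specific to wildtype mice, and which lie in megabase windows with no region specific to rCGG mice. They were chosen by cutting each autosome into fixed windows of 1 Mb, assigning every region by its midpoint, and keeping the wildtype-specific regions of windows with at least 10 such regions and 0 rCGG-specific ones. This gave 63 of 2395 windows (2.63%), 10.0% of the 8603 autosomal wildtype-specific regions and 6.65% of all 12969 regions of both lists. Because the rule itself uses the list and the position of every region, the one-sidedness of these windows is a description and not a finding.

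The study profiled 5hmC in the cerebellum of 3 wildtype littermates and 3 rCGG mice, genotype FXTAS in the labels, all of strain C57BL/6 and 16 weeks old. FXTAS is fragile X-associated tremor/ataxia syndrome, a late-onset movement disorder in people whose FMR1 gene holds an enlarged CGG repeat. The sources used here give no repeat length, no promoter that drives the repeat, no founder line and no sex. The files hold 8658 wildtype-specific and 4311 rCGG-specific regions, each with a position and a score from the authors but with no value per animal, so depth is unknown and differences between animals of a genotype cannot be seen. Cell type markers were not checked by position, since no gene annotation of the regions' genome build was used here. Cerebellar tissue was captured as a whole. In such bulk DNA, fewer cells of a type and less 5hmC per cell cannot be told apart.

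5hmC is made from 5-methylcytosine by the TET dioxygenases and is abundant in neurons, where it is found over the bodies of transcribed genes and at enhancers. Capture of biotin-tagged 5hmC, as used here, ranks stretches of DNA by relative enrichment and gives no level per cytosine. Mammalian chromosomes alternate over megabases between gene-rich, GC-rich stretches and gene-poor ones. A count per megabase window may therefore reflect position along that pattern as well as single sites, which was not tested here. All coordinates below are mm9, counted from 1; the gene and sequence tables used here are of another build, so the regions are given by position and not by gene name.

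Windows rich in wildtype-specific regions held no rCGG-specific region in 63 of 231 cases (27.3%; 95% exact binomial interval 21.6% to 33.5%). Over all 2395 autosomal windows, empty ones included, the share without an rCGG-specific region was 34.2%. The share among the rich windows was thus no higher than over all windows. Of the 819 windows without an rCGG-specific region, however, 471 held no region of either list, so the 34.2% rests largely on empty windows. The share varied with the number of wildtype-specific regions in a window, falling and then rising. It was 69.1% in the 682 windows with 0 wildtype-specific regions, many of which hold no region at all, and 31.5% in the 575 windows with 1 to 2. It was 12.1% of 555 windows with 3 to 5 and 10.5% of 352 windows with 6 to 9 (interval 7.51% to 14.2%). The share then stood at 25.0% of 116 windows with 10 to 12 (17.4% to 33.9%) and 29.6% of 115 windows with 13 or more (21.4% to 38.8%). The mean number of rCGG-specific regions per window rose and then fell. It was 0.588 in windows with 0 wildtype-specific regions, 1.80 with 1 to 2, 2.77 with 3 to 5, 2.60 with 6 to 9, 1.97 with 10 to 12 and 1.47 with 13 or more. The intervals cover counting error only, and neighbouring windows are not independent.

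**Figure D1:**
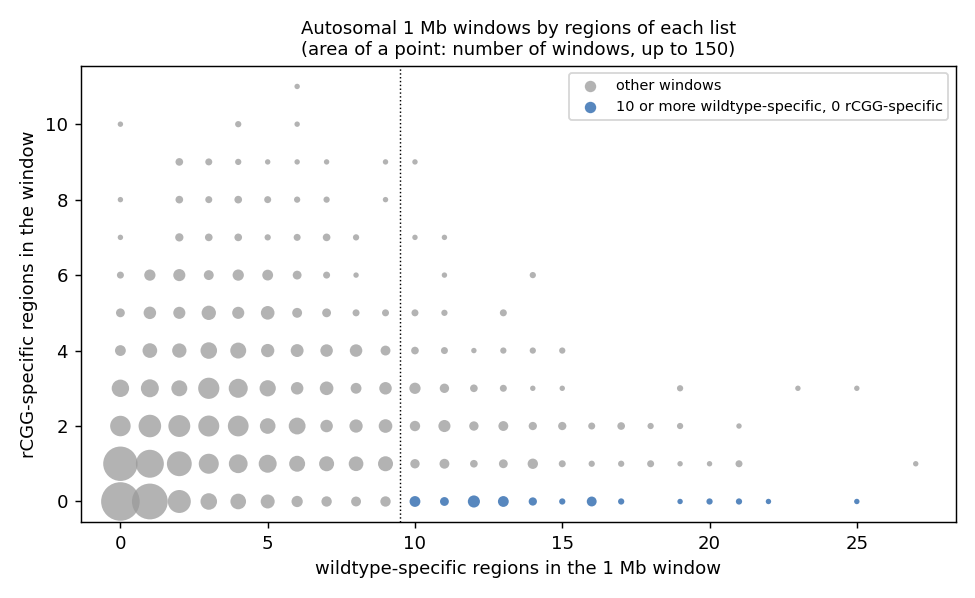
Each point stands for the autosomal 1 Mb windows with a given number of wildtype-specific regions (x axis) and rCGG-specific regions (y axis); its area grows with the number of windows, up to 150. The 63 chosen windows lie on the bottom line to the right of the dotted threshold, and the other 168 windows with 10 or more wildtype-specific regions lie above them, mostly at 1 to 3 rCGG-specific regions.

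The threshold cut through a continuous range. Just inside it were 10 windows with exactly 10 wildtype-specific and 0 rCGG-specific regions, and just outside it 9 windows with 9 and 0. A further 50 windows with 10 or more wildtype-specific regions were left out for a single rCGG-specific region, and 59 for 2. Within the chosen windows the number of regions ran from 10 to 25 with a median of 13. Of the 63, 29 held 10 to 12 regions, 15 held 13 or 14, and 19 held 15 or more.

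The richest windows lay on several chromosomes, with chromosome 7 at the top. The window chr7:52000001-53000000 held 25 regions, which covered 29.9 kb. On the same chromosome, chr7:134000001-135000000 held 22 regions over 18.4 kb and chr7:29000001-30000000 held 21 over 22.5 kb. Chromosome 15 had 21 regions over 22.0 kb in chr15:79000001-80000000. Chromosome 17 had 20 regions in each of chr17:25000001-26000000 (24.2 kb) and chr17:56000001-57000000 (18.7 kb). The next were chr7:19000001-20000000 with 19, and chr5:115000001-116000000 and chr10:79000001-80000000 with 17 each. The chromosome 5 window had the most DNA inside regions of all 63 windows, 30.2 kb, and the median window had 17.1 kb. A further 8 windows held 16 regions each, of which the one with the best-scored region, at the start of chromosome 9, is described separately below.

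**Figure D2:**
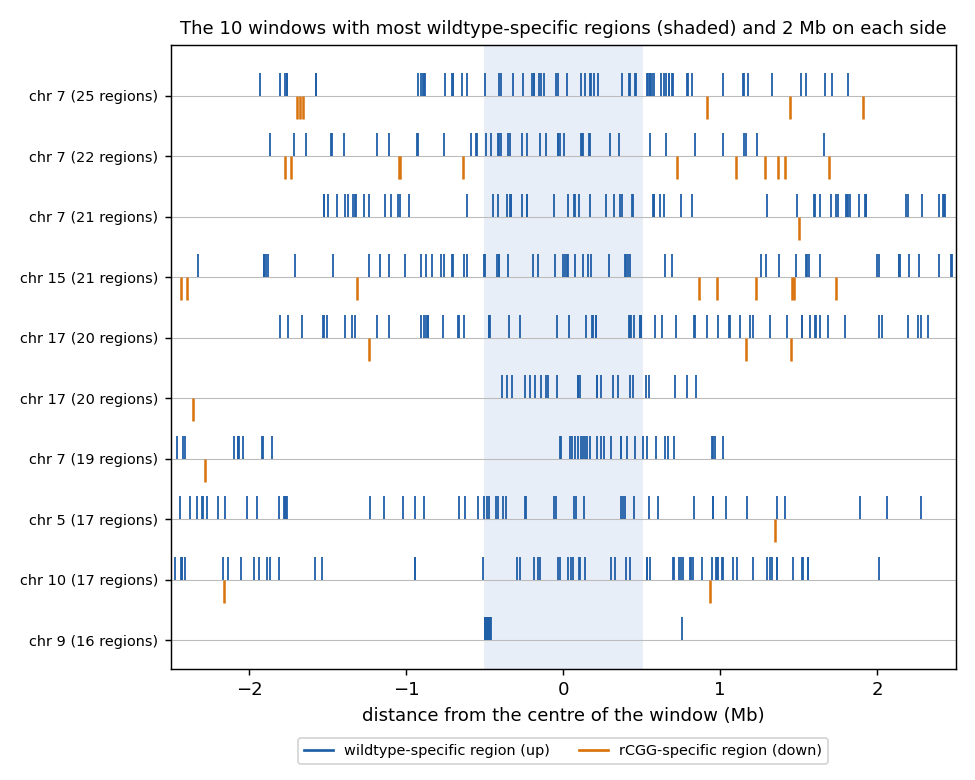
Regions of the 10 richest windows (shaded, 1 row per window) and of 2 Mb on each side, by distance from the centre of the window; blue ticks upward are wildtype-specific and orange ticks downward rCGG-specific regions. In 9 of the 10 rows wildtype-specific regions run on beyond the shaded megabase, whereas the 16 regions of the chromosome 9 window stand together at its left edge.

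Chromosomes 7, 11 and 15, the 3 autosomes with most chosen windows, carried 29 of the 63 windows and 407 of the 862 regions (47.2%). They carried 59 of the 231 rich windows and 20.1% of all autosomal wildtype-specific regions. Chromosome 11 had the most windows, 12 of its 25 rich ones. Chromosome 7 had 9 of 20 and chromosome 15 had 8 of 14. Chromosome 4 had more rich windows than any of these, 26, but only 4 of them lacked rCGG-specific regions, and chromosome 2 had 24 and 3. Chromosomes 1 and 18 had 9 and 1 rich windows and none of the chosen kind. As a share of the wildtype-specific regions on a chromosome, the chosen regions made up 26.9% on chromosome 15 (108 of 402), 23.1% on chromosome 11 (153 of 663), 21.9% on chromosome 7 (146 of 666) and 17.1% on chromosome 17 (68 of 397). On the other autosomes this share ran from 0% on chromosomes 1 and 18 to 11.4% on chromosome 5.

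**Figure D3:**
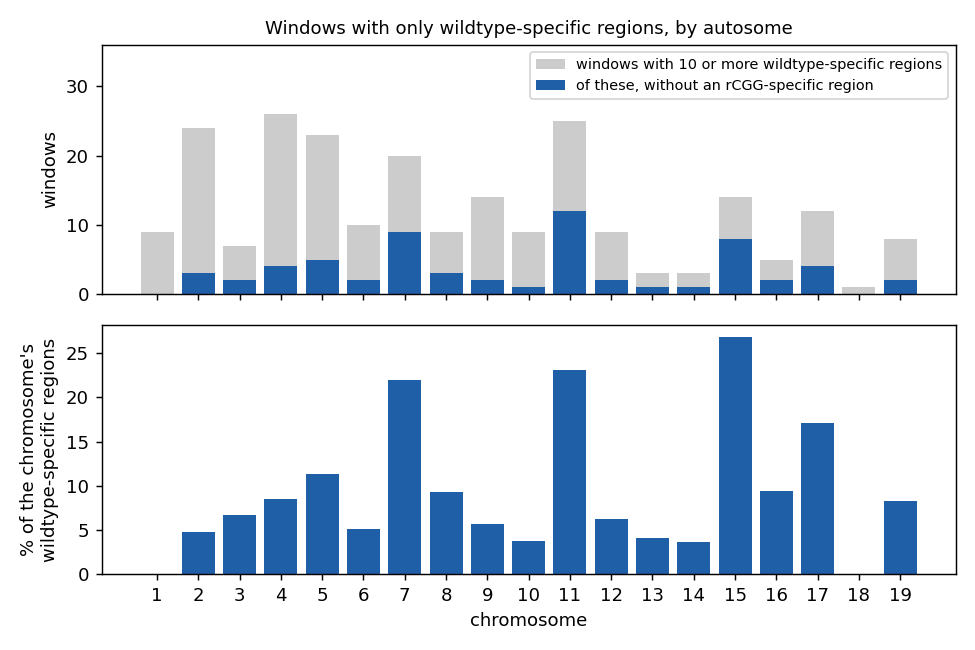
Upper panel, number of 1 Mb windows with 10 or more wildtype-specific regions on each autosome (grey) and of those without an rCGG-specific region (blue). Lower panel, the chosen regions as a percentage of the wildtype-specific regions on the chromosome; chromosomes 7, 11, 15 and 17 stand above 15% and the others below 12%.

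Gene-dense chromosomes held more of these windows. The 5 autosomes with most protein-coding genes per Mb in the GRCm38 gene table (2, 7, 11, 17 and 19; 9.96 to 13.97 genes per Mb) held 30 chosen windows, 5.03% of their 596 windows. The 5 with fewest (1, 3, 12, 14 and 18; 5.66 to 6.84 genes per Mb) held 5, 0.755% of their 662 windows. The share of rich windows that lacked rCGG-specific regions was 33.7% (30 of 89) on the former and 17.2% (5 of 29) on the latter. Chromosome 15, with 7.48 genes per Mb, and chromosome 2, with 9.96, departed from this order. Of the 30 windows, chromosome 11 held 12 and chromosome 7 held 9, while chromosomes 2, 17 and 19 held 3, 4 and 2. Rich windows without rCGG-specific regions numbered 3 of 24 on chromosome 2, 4 of 12 on chromosome 17 and 2 of 8 on chromosome 19. The share over all autosomes was 27.3%. The comparison is between whole chromosomes, and gene density inside the windows was not analysed here. Chosen windows also lay near the last region of their chromosome more often than windows in general. Of the 63, 17 (27.0%) started within 10 Mb of it, against 7.93% of all windows and 17.7% of the 231 rich windows.

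Some of the chosen windows adjoined each other. There were 10 runs of adjoining windows with 24 windows and 333 regions in all, and the other 39 windows stood alone. The longest run was on chromosome 11, where the 5 windows from 115000001 to 120000000 held 16, 13, 16, 10 and 12 regions. Chromosome 15 had a run of 3 windows from 100000001 to 103000000 with 38 regions. The remaining runs were pairs. On chromosome 7 they lay at 19000001-21000000 with 29 regions, 28000001-30000000 with 36 and 51000001-53000000 with 36. On chromosome 11 they lay at 97000001-99000000 with 26 and 100000001-102000000 with 25. Chromosome 5 had a pair at 139000001-141000000 with 27, chromosome 8 at 73000001-75000000 with 28 and chromosome 19 at 6000001-8000000 with 21.

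The stretch without rCGG-specific regions around each window was also measured from one rCGG-specific region to the next. By the rule it cannot be much shorter than 1 Mb. For 59 of the 63 windows an rCGG-specific region lay on both sides, and these windows fell into 45 distinct stretches with a median length of 2.40 Mb. Per window, the stretch ran from 1.08 to 13.7 Mb with a median of 2.52 Mb, and exceeded 3 Mb for 21 windows. For 14 windows an rCGG-specific region lay within 100 kb of an edge, and for 4 within 100 kb of both edges. Among these, chr9:43000001-44000000 had rCGG-specific regions 59.7 kb before and 21.4 kb after it, and chr15:88000001-89000000 had them 20.5 kb before and 86.4 kb after. At chr12:111000001-112000000 the next rCGG-specific region began at -0.256 kb from the end of the window. It reached into the window but was assigned to the following one by its midpoint. In 22 windows both neighbouring windows held at least 1 rCGG-specific region, in 28 only 1 neighbour did, and in 13 neither did.

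The stretch with most wildtype-specific regions was chr11:114821246-120274404, 5.45 Mb long, with 73 wildtype-specific regions or 13.4 per Mb. It was followed by chr5:112373032-116847415 with 55 over 4.47 Mb. The stretch chr7:50840500-53415941 was shorter, 2.58 Mb, and held 54, or 20.97 per Mb. The stretch chr17:24262066-26664655 held 41 over 2.40 Mb, or 17.1 per Mb. Longer stretches held fewer wildtype-specific regions per Mb, 2.74 in those of 1 Mb or longer and 2.08 in those of 2 Mb or longer, against 3.61 in stretches of any length. The longest stretch, 13.7 Mb on chromosome 7 around the window chr7:38000001-39000000, held 20 wildtype-specific regions, 11 of them in that window. Over the autosomes 598 stretches of 1 Mb or longer lacked an rCGG-specific region. Those with a chosen window numbered 45 and held 9.44 wildtype-specific regions per Mb, a density that the minimum of 10 per window raises by construction. A total of 84 stretches of 1 Mb or longer held no wildtype-specific region either. A further 75 held 10 or more wildtype-specific regions (1089 in all) and no chosen window, because the fixed grid divided them or because they were spread too thinly.

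Wildtype-specific regions remained dense in the megabases around the windows. Taking every window at a given distance, chosen ones included, those 1 Mb away held 9.51 wildtype-specific regions on average (115 windows), those 2 Mb away 7.80, 3 Mb away 7.38 and 5 Mb away 4.83, against 3.59 over all autosomal windows. The mean number of rCGG-specific regions in the same windows was 1.44 at 1 Mb, 1.57 at 2 Mb, 1.36 at 3 Mb and 1.74 at 5 Mb, against 1.79 over all autosomal windows. At 1 Mb, 41.7% of the windows held no rCGG-specific region, against the 34.2% of all windows. The level of rCGG-specific regions near the windows depended on whether neighbours that were themselves chosen, and so hold none by the rule, were counted. With them left out, the means at 1, 2, 3 and 5 Mb were 1.82, 1.85, 1.63 and 1.81 rCGG-specific regions and 8.36, 6.78, 6.22 and 4.62 wildtype-specific ones. Around the 168 equally rich windows that did hold rCGG-specific regions, again with every neighbour counted, the means at 1 Mb were 8.05 wildtype-specific and 1.93 rCGG-specific regions, and at 5 Mb 5.18 and 1.62. The wildtype-specific share of regions at 1 Mb was 86.8% around the chosen windows and 80.7% around the mixed ones, and 82.1% and 78.0% without chosen neighbours. Many neighbouring windows are shared by several chosen or mixed windows, and the difference was not tested.

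**Figure D4:**
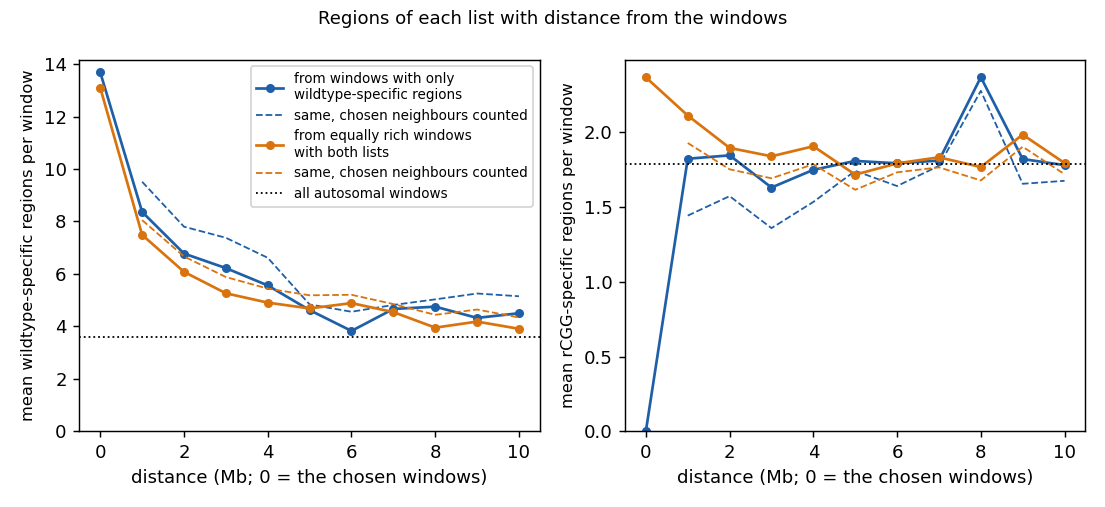
Mean number of wildtype-specific (left) and rCGG-specific regions (right) per 1 Mb window by distance from the 63 chosen windows (blue) and from the 168 equally rich windows with both lists (orange); dashed lines count every window from 1 Mb on, solid lines leave out chosen ones, and the dotted line is the mean of all autosomal windows. Dashed blue stands at 9.51 on the left and 1.44 on the right at 1 Mb, and solid blue at 8.36 and 1.82.

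Within a window the regions were mostly spread out. The distance from the first to the last region had a median of 866 kb, and exceeded 800 kb in 41 of 63 windows. It was under 500 kb in 4 windows, namely chr9:3000001-4000000 (38.5 kb), chr7:51000001-52000000 (313 kb), chr12:114000001-115000000 (423 kb) and chr7:19000001-20000000 (478 kb). The median over windows of the largest gap between neighbouring regions was 229 kb, and it was 238 kb in the mixed rich windows. Joining regions less than 10 kb apart turned the 862 regions into 688 groups, of which 559 were single regions, 102 pairs, 26 groups of 3 or 4, and 1 group of 16. In all, 303 regions (35.2%; interval 32.0% to 38.4%) lay within 10 kb of another chosen region. Counting any wildtype-specific neighbour, the number was 306 (35.5%), against 34.8% of the 2200 wildtype-specific regions in mixed rich windows and 15.3% of those in windows with fewer than 10. A window with more regions holds closer neighbours, so part of this follows from the rule. Groups of 4 lay at chr7:51596317-51621184, chr17:25988027-25998085, chr5:113723223-113741063, chr15:101768101-101782406 and chr19:6005458-6024386.

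The group of 16 is the whole content of the window at the start of chromosome 9, at chr9:2999879-3038406. Its median score was 264 and its lowest score 66.88, whereas the medians of the other 62 windows ran from 54.73 to 81.2. Its gaps had a median of 0.784 kb, against 6.99 to 107 kb in the other windows. It included 4 of the 5 best-scored regions of the whole set, chr9:3035553-3036907 (626.83), chr9:3024364-3027947 (569.83), chr9:3021944-3024014 (355.17) and chr9:3031716-3032858 (350.92). Its part in results on the score was measured by leaving it out, and those values stand beside the results.

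Broad regions made up more of the chosen set than of the rest of the wildtype list. The chosen regions had a median width of 882 bp, with the middle 50% between 623 and 1395 bp. The other 7741 autosomal wildtype-specific regions had 676 bp (526 to 955 bp). For the 4288 rCGG-specific ones it was 854 bp (715 to 1064 bp). Regions over 2 kb made up 14.3% (123 of 862; interval 12.002% to 16.8%) and 6.12% (5.60% to 6.68%) of the first pair of sets, and regions under 500 bp 9.51% and 16.5%. Width also differed with the number of wildtype-specific regions in the window, over windows with and without rCGG-specific ones together. The median was 571 bp in windows with 1 to 2 of them, 612 bp with 3 to 5, 683 bp with 6 to 9, 772 bp with 10 to 12 and 873 bp with 13 or more. In the mixed rich windows it was 818 bp (599 to 1278 bp), and 10.9% were over 2 kb (239 of 2200; 9.59% to 12.2%). The intervals for the chosen and the mixed windows overlap narrowly. All intervals here cover counting error only and take regions of the same window as independent, which they are not. No test was made, because regions share their libraries and are not replicates. In windows of 6 to 9 wildtype-specific regions, below the threshold, the regions of the 37 windows without rCGG-specific ones also had the higher median width, 780 bp against 675 bp. There 11.3% against 5.57% were over 2 kb (intervals 7.82% to 15.7% and 4.67% to 6.58%). Some of these 37 windows adjoin chosen ones in the same stretch without rCGG-specific regions, so this comparison is not separate from the chosen set. With 1 to 2 wildtype-specific regions in the window the order was the opposite, 545 bp against 585 bp.

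**Figure D5:**
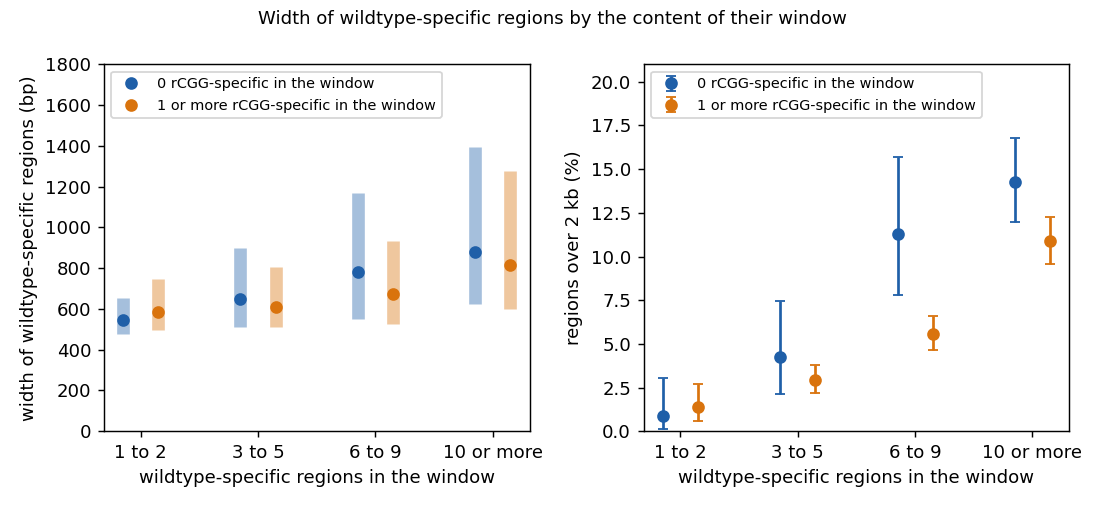
Left, median (points) and interquartile range (bars) of the width of wildtype-specific regions; right, percentage of them over 2 kb with 95% exact binomial intervals; both by the number of wildtype-specific regions in the window, split by whether the window held an rCGG-specific region. Widths rise from left to right in both colours, and the chosen regions are the blue set at 10 or more, with a median of 882 bp beside 818 bp in orange.

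Broad regions were found in most of the chosen windows. Of the 63, 52 held at least 1 region over 2 kb and 22 held 3 or more, and the 123 broad regions made up 36.8% of the DNA that the 862 regions cover (1.04 Mb). The widest was chr5:115021880-115030220 with 8341 bp, followed by chr15:98690454-98697177 with 6724 bp, chr11:101024229-101030509 with 6281 bp, chr11:115916974-115923199 with 6226 bp and chr11:118895714-118901760 with 6047 bp. Of these 5, 3 lie on chromosome 11. Median widths of single windows ran from 570 bp in chr6:83000001-84000000 to 1928 bp in chr7:51000001-52000000. Windows with 5 broad regions were chr6:91000001-92000000, chr7:51000001-52000000, chr10:79000001-80000000, chr11:94000001-95000000, chr11:97000001-98000000 and chr17:27000001-28000000. At the other end, 11 windows held no region over 2 kb, among them chr12:111000001-112000000, whose 10 regions were all at most 853 bp wide.

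Scores of the chosen regions were slightly above those of the other wildtype-specific regions. The score is the authors' own value on a scale that is not stated, so it gives an order within the wildtype list and no size. Its median was 65.1 (interquartile range 56.0 to 79.2), against 62.1 (55.1 to 74.5) for the other autosomal wildtype-specific regions and 62.6 (55.3 to 75.2) in mixed rich windows. A score of at least 100 was reached by 79 regions (9.16%; interval 7.32% to 11.3%), against 5.83% and 7.45% of those sets. Without the chromosome 9 window the share was 7.68% (65 of 846, interval 5.98% to 9.69%), close to the mixed windows. The median was then 64.5, still above the 62.6 of the mixed windows. In the chosen set, broad regions scored higher, with a median of 72.6 for the 123 over 2 kb, 65.1 for the 657 of 500 bp to 2 kb and 61.4 for the 82 under 500 bp. Mixed rich windows had the same order, with medians of 71.0, 62.1 and 60.8. The best score per window ran from 73.90 in chr14:76000001-77000000 to 626.83 in the chromosome 9 window, and reached 100 in 40 of 63 windows.

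After the chromosome 9 window, the windows with the best single scores lay on chromosomes 7 and 11. In the window chr7:52000001-53000000 the region chr7:52300781-52306218, 5438 bp wide, had 411.93. The next best of its 25 regions were chr7:52676494-52677388 with 149.29 and chr7:52963387-52964294 with 139.25, and the median of the window was 69.58. On chromosome 11 the region chr11:101024229-101030509 had 291.02 in a window with a median of 64.04, and chr11:96998024-97004005, 5982 bp wide, had 287.44 in a window with a median of 68.34. In these 3 windows the best-scored region was also the widest one. The fifth window by best score was chr7:51000001-52000000, where chr7:51606990-51610381, 3392 bp wide, had 203.84 and the median was 73.12.

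The identity of the windows depended on where the grid began. When the grid was moved in steps of 100 kb, each of the 10 positions gave 54 to 65 windows and 775 to 894 regions. The share of rich windows without an rCGG-specific region ran from 22.3% to 28.3%, and over all windows from 34.2% to 35.0%. Of the 862 regions, 236 (27.4%) qualified at all 10 positions and 74 (8.58%) at the original one alone. The window chr7:29000001-30000000 kept all of its 21 regions at all 10 positions, chr11:117000001-118000000 all 16, and chr11:116000001-117000000 all 13. Around these windows the nearest rCGG-specific regions lay more than 1 Mb from either edge. No position could therefore bring one in, and only the minimum of wildtype-specific regions could have failed. The window chr9:3000001-4000000 also kept all 16, but none of these positions could divide its 38.5 kb group. The nearest rCGG-specific region lay 9245 kb after that window, so its result was fixed in advance. The window chr7:52000001-53000000 kept 13 of its 25, and chr5:115000001-116000000 kept 16 of 17. No region of chr7:134000001-135000000, with 22 regions the second richest, did so, and the rCGG-specific regions around it lay 139 kb before and 223 kb after it.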

How the data were processed

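Biotin-captured 5hmC DNA of 6 cerebella was sequenced for 38 cycles, per the labels' protocols. Reads were aligned with Bowtie 0.12.9, HOMER was also used, and positions refer to mm9, per the submitters' processing notes. The authors deposited the regions as 2 lists with a score per region on a scale not stated, the lowest being 50.00 among wildtype-specific regions. Peak names are those of MACS; settings, control and pooling were not given in the sources used here. Depth is unknown.

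Windows, gaps between region edges, groups, widths and exact binomial intervals (95%) were computed with Python 3.11.15, numpy 2.4.6, pandas 2.3.3, scipy 1.17.1 and matplotlib 3.10.9. The rule was checked on simulated regions. No test was made: the lists hold no value per animal, and regions are not replicates.

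The members and the measures were chosen with earlier results of these data known. Named were the 10 windows with most regions (ties by best score), the runs, and the 5 widest and 5 best-scored regions; the other named windows, stretches, groups and regions were chosen after their values were seen. The windows with the best-scored regions are named through those regions. The mean profile with distance, the stretches and the split by window content were added after seeing the data. Planned measures of genes, gene starts, fixed gene lists and base composition were left out, since they need an mm9 annotation or genome, not used here. Protein-coding genes per chromosome were counted in the GRCm38 gene table.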

Additional observations from a re-analysis of the deposited data

How the results depend on the processing

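The member count of 862 stayed within 1.5 times under 7 of 11 changes of the rule or the regions and under all 8 further grid positions. It moved to 535 regions (29 windows) with windows of 2 Mb, 504 (44) with windows of 500 kb, 1566 (113) with at most 1 rCGG-specific region allowed and 339 (27) when the rule was applied anew to regions of both lists with scores of at least 60; each changes what can qualify by its construction. Among the changes within 1.5 times, counting each group under 10 kb as a single region first gave 648 regions in 44 windows. The main rule gave 63 windows. Leaving out the chromosome 9 window could remove only its 16 regions. Including the X chromosome could add at most its 55 wildtype-specific regions. Neither change could move the count beyond 1.5 times. A shift by 500 kb gave 872 regions, of which 460 were shared. Median width was 922 bp after that shift and 920 bp in the 544 of the 862 regions with a score of at least 60, outside the interval of the main 882 bp (853 to 911 bp). Median score was 67.1 when the best-scored region of each group under 10 kb was kept, which raises it by construction. The share near another chosen region was 23.7% at 5 kb and 52.0% at 20 kb. Leaving out the chromosome 9 window changed no other value by more than its interval. The grid positions other than 500 kb, that omission and the count of chosen neighbours were added after seeing the data. Alternatives on genes and gene starts were not run. No paired analysis was possible because neither list gives a value per animal, and no animal could be left out. Unknown depth limits every count.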

Other observations

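The rCGG-specific regions inside mixed rich windows were slightly wider than those elsewhere. The 398 rCGG-specific regions in windows with 10 or more wildtype-specific regions had a median width of 889 bp, and 8.54% exceeded 2 kb. In windows with 0 wildtype-specific regions the 401 rCGG-specific regions had a median of 811 bp, and 4.24% exceeded 2 kb. Most other windows stood closer to the rich ones, with 868 bp and 6.04% at 3 to 5 wildtype-specific regions and 862.5 bp and 5.58% at 6 to 9. With 1 to 2 the values were 826.5 bp and 3.28%. Among the rich windows, 10.0% exceeded 2 kb at 10 to 12 and 6.51% at 13 or more. Over all autosomes the values were 854 bp and 5.34%. The median rCGG-specific score was 59.6 in windows with 10 or more wildtype-specific regions and 59.5 in windows with 0.

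The X chromosome, which the rule leaves out, added no window when it was included. It held 55 wildtype-specific and 23 rCGG-specific regions, and its richest window held 10 wildtype-specific regions together with 3 rCGG-specific ones.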
